A study of Arabidopsis thaliana with 3 samples.

Results

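The genes described here are 10 class III peroxidase genes of Arabidopsis thaliana, out of 3602 genes for which the array's annotation names a probe set, meaning a group of short probes for 1 transcript, for that gene alone. They form a list chosen by their signals and ratios on these same arrays, so their ratios between arrays are given below as a description. All 10 genes lay above the floor, a signal of 14.9 below which values were treated as not measured, on all 3 arrays. They had 12 probe sets between them. The whole family is taken here as 73 genes, of which 46 had a probe set of their own, so 36 further peroxidase genes could be set beside the 10. Family numbers (PRX01 to PRX73) follow the order of the genes along the chromosomes.

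RNA was taken from whole seedlings of the Col-0 ecotype at growth stage 1.02, grown in 16 h light and 8 h dark on MS medium with 0.5% sucrose. The ppi1 seedlings carried a T-DNA insertion in the gene for Toc33, a receptor of the translocon that brings proteins into plastids. Seedlings of line 75-IV carried a T-DNA insertion labelled as lying in Toc75, with the locus AT4G09070. RefSeq, however, lists TOC75-IV under AT4G09080, and the series title speaks of ppi3. Wild-type Col-0 seedlings had no modification. Each line had 1 array. No difference below could therefore be tested, and each is a difference between arrays. The sources used here do not say how many plants were pooled or whether a line goes back to 1 plant. The genes for Toc33, TOC75-IV, TOC34 and AT4G09070 had no probe set of their own, so the mutations were not checked on these arrays.

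Class III peroxidases are haem enzymes that plant cells secrete through the endoplasmic reticulum into the cell wall and vacuole. With hydrogen peroxide they oxidise phenols, which couples monolignols into lignin, bridges wall proteins and stiffens the wall, and in another cycle they produce reactive oxygen, which can loosen the wall. The family is large in plants, and many of its genes are transcribed mainly in roots, in root hairs, the elongation zone, the endodermis and the xylem. Among the 10 genes, PRX07 (AT1G30870), PRX16 (AT2G18980), PRX27 (AT3G01190), PRX30 (AT3G21770), PRX45 (AT4G30170) and PRX57 (AT5G17820) are known mainly from roots. PRX71 (AT5G64120) and PRX62 (AT5G39580) are known for responses to wounding, cold and pathogens, and PRX71 also for limiting cell growth by stiffening the wall. PRX23 (AT2G38390) is the tandem neighbour of its close relative PRX22 and belongs to the group most like horseradish peroxidase C. PRX11 (AT1G68850) has no well-known single role. Because whole seedlings were used, fewer root cells and less transcript per cell cannot be told apart in any of these values.

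The arrays had been scaled to the same average, with trimmed means of 100.2 on each. They differed in other measures. The scanner's background was 62.0 for ppi1, 56.6 for line 75-IV and 50.5 for wild type. Of 285156 cells read per array, 504 were marked as outliers in ppi1, 20 in line 75-IV and 11 in wild type. The signal at the 3' end of the GAPDH control transcript was 1.61 times that at its 5' end in ppi1, 2.42 times in line 75-IV and 18.7 times in wild type. For the ubiquitin control the same ratio was 2.75, 3.51 and 4.16 in that order. The 9 bacterial spike-in control probe sets had a mean log2 ratio of -0.48 in ppi1 against wild type, 0.18 in line 75-IV against wild type and -0.66 in ppi1 against line 75-IV. The part of these differences in the peroxidase values was not tested. There were no replicates to give the spread between seedlings or arrays. The disagreement between probe sets of 1 gene, which is probe error only, was taken from genes with several probe sets. Their brightest probe sets gave log2 ratios that differed by a median of 0.48 over 83 genes in ppi1 against wild type, 0.30 over 86 genes in line 75-IV against wild type and 0.31 over 92 genes in ppi1 against line 75-IV. The 90th percentile of these disagreements was 1.21, 0.87 and 0.66.

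PRX71 and PRX62, the peroxidases known from stress responses, were highest in ppi1, unlike the 8 other genes. PRX71 gave a signal of 777.7 in ppi1 and 439.0 in line 75-IV, against 115.8 in wild type. Both mutant arrays were high and the wild-type array low, 6.72-fold apart for ppi1 and 3.79-fold for line 75-IV. Among all measured genes this was the highest ratio of ppi1 to wild type, and in line 75-IV the gene ranked 3 of 1858. The 2 mutant arrays differed by 1.77-fold from each other, with ppi1 higher, or 0.82 on the log2 scale.

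PRX62 behaved differently in the mutants. Its signal was 410.0 in ppi1 and 70.1 in line 75-IV, against 198.2 in wild type. It was thus high in ppi1 and low in line 75-IV, with wild type between them. The log2 ratio was 1.05 in ppi1 against wild type, which is within the 90th percentile of disagreement between probe sets and was 0.97 after median centring, and -1.499 in line 75-IV against wild type, which is beyond it. In that second comparison it was the lowest of all measured genes. Set against each other, ppi1 was 5.85-fold higher than line 75-IV, the highest ratio of 1885 genes in that comparison.

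**Figure D1:**
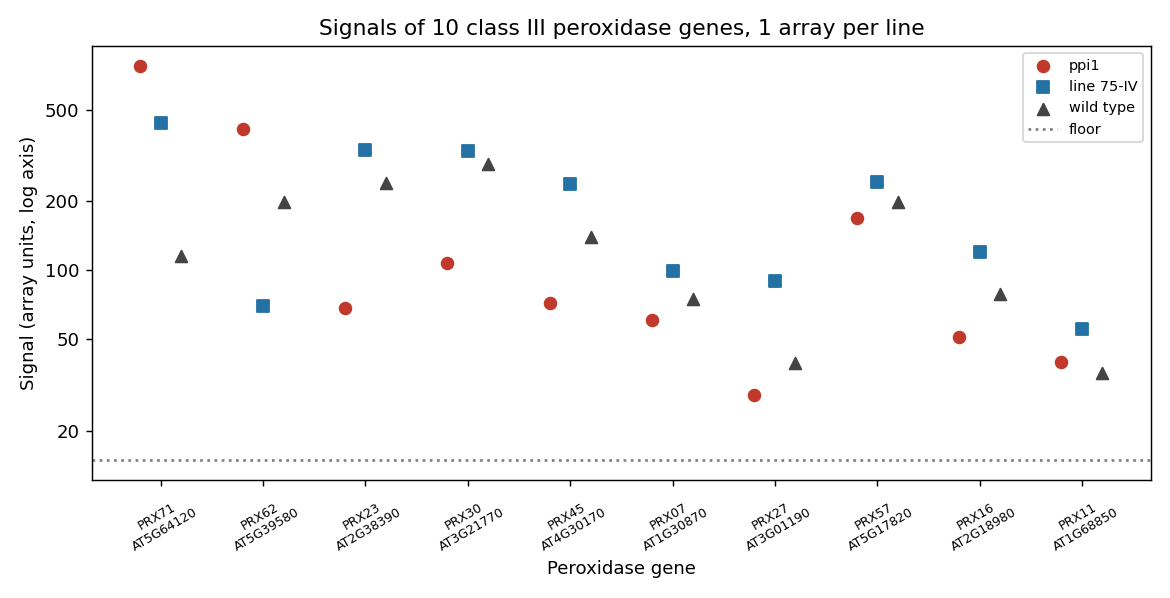
Signal on a log axis for each of the 10 peroxidase genes, with 1 point per array (ppi1, line 75-IV, wild type) and the floor of 14.9 as a dotted line. PRX71 and PRX62 are highest in ppi1, at 777.7 and 410.0, whereas the 8 other genes are highest in line 75-IV.

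PRX23 was the lowest of the 10 in ppi1 relative to the other lines. It gave a signal of 68.4 in ppi1 and 334.9 in line 75-IV, against 240.7 in wild type. The ppi1 array was 3.52-fold lower than wild type and 4.90-fold lower than line 75-IV, while line 75-IV lay 1.39-fold above wild type. Its neighbour PRX22 (AT2G38380), read by other probe sets, had 288.7 in ppi1 and 738.6 in line 75-IV, against 630.7 in wild type. A further PRX22 probe set read 102.3 in ppi1 and 253.6 in line 75-IV, against 190.7 in wild type. All 3 probe sets of this gene pair thus had ppi1 lowest and line 75-IV highest. Both PRX22 probe sets carry a suffix (s or i) that marks sets with possible cross-hybridisation or fewer probes, and the extent to which they read both copies was not tested.

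The signal of PRX30 was 107.7 in ppi1 and 329.9 in line 75-IV, against 288.8 in wild type. Here ppi1 alone stood apart, 2.68-fold below wild type (a log2 ratio of -1.42, or -0.94 under the spike-in scaling), and line 75-IV and wild type differed by only 1.14-fold. A second, dimmer probe set of PRX30 read 14.8 in ppi1, just below the floor, and 47.4 in line 75-IV, against 34.6 in wild type. Both probe sets had the same order of arrays, and both carry a suffix.

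The signal of PRX45 was 71.9 in ppi1 and 236.7 in line 75-IV, against 139.9 in wild type. The ppi1 value was 1.95-fold below wild type, just short of the 2-fold size used to count differences but past it after median centring, quantile normalization or loess, and the line 75-IV value 1.69-fold above it. Between the mutants the gap was 3.29-fold. PRX27 had 28.7 in ppi1, 89.4 in line 75-IV and 39.4 in wild type. This gene was high mainly in line 75-IV, at 2.27-fold wild type, and its ppi1 signal was 1.37-fold below wild type and 3.11-fold below line 75-IV. PRX16 had 51.0 in ppi1, 120.5 in line 75-IV and 78.8 in wild type. It lay 1.55-fold below wild type in ppi1 and 1.53-fold above it in line 75-IV, which put the mutants 2.36-fold apart.

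The other members differed less. PRX57, a gene of the root elongation zone and a known target of the growth regulator UPBEAT1, gave a signal of 169.3 in ppi1 and 241.9 in line 75-IV, against 198.4 in wild type. Its log2 ratios to wild type, -0.23 for ppi1 and 0.29 for line 75-IV, were both within the median disagreement between probe sets. PRX07 had 60.6 in ppi1 and 98.8 in line 75-IV, against 75.0 in wild type, with a log2 ratio of -0.31 for ppi1 and 0.40 for line 75-IV. PRX11 had 39.9 in ppi1 and 55.7 in line 75-IV, against 35.6 in wild type. Its second probe set read 3.5 in ppi1, far below the floor, and 20.7 in line 75-IV, against 16.8 in wild type. The probe sets of PRX11 therefore placed ppi1 on opposite sides of wild type, and no direction can be given for that gene in ppi1.

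In ppi1 against wild type, 2 of the 10 genes were higher by at least 2-fold and 2 were lower by at least 2-fold. Across all 1853 measured genes those shares were 4.26% higher and 2.43% lower. The median log2 ratio of the 10 genes was -0.38, against 0.11 for all genes, and 7 of 10 were lower, where all genes had 41.5%. Scaling to the spike-in controls, which moved the median of all genes to 0.57, moved that of the 10 genes to 0.10, and 4 of 10 were then lower. In line 75-IV against wild type, 2 of the 10 genes were higher by at least 2-fold and 1 was lower by as much, where all 1858 measured genes had 1.45% and 0.431%. The median was 0.54, against 0.05 for all genes, and 9 of 10 were higher, where all genes had 55.2%. Under the spike-in scaling 9 of 10 were higher too. In ppi1 against line 75-IV, which leaves out wild type, 1 gene was at least 2-fold higher and 5 were at least 2-fold lower, where all 1885 measured genes had 2.76% and 3.5%. The median was -0.97, against 0.07 for all genes, and 8 of 10 were lower in ppi1, where all genes had 43.9%. With the arrays scaled to the spike-in controls, 6 of 10 were lower and the median was -0.31, against 0.71 for all genes. Since the ratios helped to choose the genes, nothing is read from these counts. Both comparisons with wild type share its array.

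**Figure D2:**
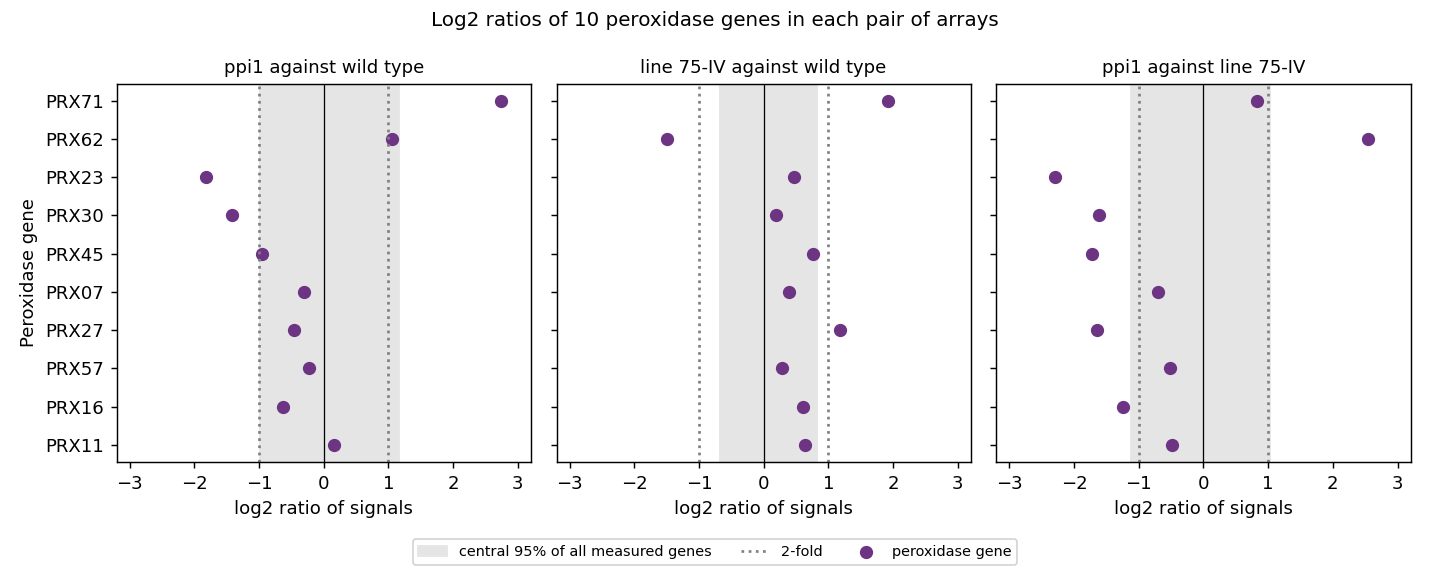
Log2 ratios of the 10 peroxidase genes in the 3 pairs of arrays, with the central 95% of all measured genes shaded and 2-fold differences dotted. PRX71 lies far right in both comparisons with wild type (2.75 and 1.92), and PRX62 changes side between them (1.05 and -1.499).

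The rest of the family was looked at gene by gene. Of the 36 other peroxidase genes with a probe set, 16 were above the floor on all 3 arrays, 8 on some arrays and 12 on none. Among the brightest was PRX42 (AT4G21960, PRXR1), at a signal of 903.4 in ppi1 and 1269.6 in line 75-IV, against 747.8 in wild type. PRX32 (AT3G32980), of the horseradish peroxidase C group, had 701.2 in ppi1 and 997.9 in line 75-IV, against 857.4 in wild type. PRX69 (AT5G64100) lies 2 genes from PRX71 in the same tandem cluster and had 434.9 in ppi1 and 529.6 in line 75-IV, against 507.8 in wild type. The high mutant signals of PRX71 were thus not seen in PRX69, which differed from wild type by a log2 ratio of -0.22 in ppi1 and 0.06 in line 75-IV. PRX70, which lies between them, had no probe set of its own and was not analysed here. The probe set of PRX71 carries the suffix s, and no second set was there to compare.

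Of the 17 other family genes measured in ppi1 and wild type, 1 was higher by at least 2-fold and 3 were lower by at least 2-fold, where all genes had 4.26% and 2.43%. The higher one was PRX12 (AT1G71695), at a signal of 295.7 in ppi1 and 163.6 in line 75-IV, against 134.4 in wild type. Like PRX71 it was highest in ppi1 and lowest in wild type, and so was PRX50 (AT4G37520) with 225.0 in ppi1 and 153.6 in line 75-IV, against 120.0 in wild type. That order was found in 2 of the 16 other family genes above the floor on all arrays. Of all 1796 genes measured on the 3 arrays 25.3% had it. The lower ones were PRX22, PRX15 and PRX20. PRX15 (AT2G18150) had 46.1 in ppi1 and 143.1 in line 75-IV, against 95.8 in wild type, so that ppi1 was 2.08-fold below wild type. PRX20 (AT2G35380) had 36.1 in ppi1 and 91.0 in line 75-IV, against 93.6 in wild type, 2.59-fold lower in ppi1. Its dimmer probe set also had ppi1 lowest, at 5.9, against 29.1 in line 75-IV and 23.6 in wild type. The signal of PRX21 (AT2G37130) was 337.5 in ppi1 and 630.4 in line 75-IV, against 530.6 in wild type.

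Some peroxidases are tied to lignin and xylem. PRX72 (AT5G66390), which takes part in lignin formation, gave a signal of 47.3 in ppi1 and 64.7 in line 75-IV, against 46.2 in wild type. PRX47 (AT4G33420) and PRX66 (AT5G51890), both known from developing xylem vessels, had log2 ratios of 0.01 and -0.52 in ppi1 against wild type and of 0.35 and -0.41 in line 75-IV against wild type. PRX39 (AT4G11290), like PRX57 a target of UPBEAT1, was near the floor, with 28.9 in ppi1 and 30.0 in line 75-IV, against 18.4 in wild type. PRX17 (AT2G22420), another lignin gene, read 22.7 in ppi1 and 29.2 in line 75-IV, and 11.2 in wild type, which is below the floor. With wild type set to the floor, line 75-IV was at least 1.96-fold higher on this probe set. A second PRX17 probe set read 21.9 in ppi1 and 19.6 in line 75-IV, and 14.7 in wild type, just below the floor. It thus placed ppi1 above line 75-IV, with both signals near the floor, so no order of the mutants can be given for PRX17.

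PRX44 and PRX55 had signals below the floor in ppi1 alone. PRX44 (AT4G26010), a gene of growing root hairs, had 4.0 in ppi1 and 23.6 in line 75-IV, against 18.1 in wild type. PRX55 (AT5G14130) had 4.5 in ppi1 and 34.7 in line 75-IV, against 27.1 in wild type. With ppi1 set to the floor, PRX44 was at least 1.21-fold and PRX55 at least 1.82-fold lower in ppi1 than in wild type. PRX49, PRX19 and PRX63 had log2 ratios of -0.18, -0.25 and 0.23 in ppi1 against wild type and of 0.69, 0.12 and -0.11 in line 75-IV against wild type. PRX09, PRX35, PRX46, PRX24 and PRX59 lay within 1.17-fold of the floor wherever they were above it. Below the floor on every array were PRX06, PRX10, PRX13, PRX14, PRX18, PRX25, PRX26, PRX40, PRX41, PRX43, PRX48 and PRX54.

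Of the 16 other family genes above the floor on all arrays, 7 had line 75-IV highest, wild type next and ppi1 lowest, where 18.1% of the 1796 genes measured on all arrays did. Median centring and quantile normalization each gave 9 of 16, where all genes had 17.7% and 17.9%. Under the spike-in scaling it was 3 of 16, where all genes had 3.13%. The order was also that of 7 of the 10 genes described, from which nothing is read, since their ratios helped to choose them. In line 75-IV against wild type 15 of the 18 other peroxidase genes measured were higher, with a median log2 ratio of 0.32. Of all genes 55.2% were higher. Under the spike-in scaling, where the median of all genes was -0.12, 5 of the 18 were lower. None of these 18 was 2-fold apart, where all genes had 1.45% higher and 0.431% lower. In ppi1 against line 75-IV, 15 of the 18 measured there were lower, with a median of -0.37, where 43.9% of all genes were lower, but 5 of 18 were lower after spike-in scaling, with a median of 0.29. Within that comparison 3 of the 18 were at least 2-fold lower, PRX15 (3.10-fold), PRX22 (2.56-fold) and PRX20 (2.52-fold), and none was 2-fold higher, where all genes had 3.5% lower and 2.76% higher. In ppi1 against wild type 10 of 17 were lower, with a median of -0.18, and 5 of 17 under the spike-in scaling.

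**Figure D3:**
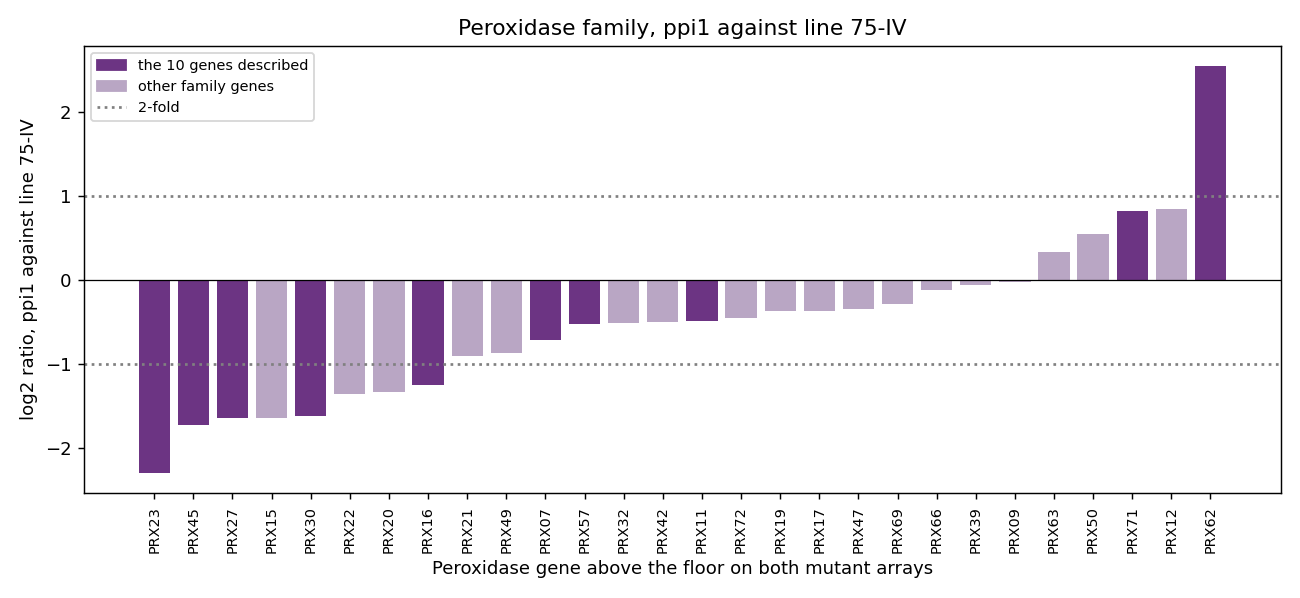
Log2 ratio of ppi1 against line 75-IV for the 28 peroxidase genes measured in both mutants, in rising order, with the 10 genes described in dark bars and the others in light bars. PRX23 (-2.29) and PRX45 (-1.72) form the low end, and PRX62 (2.55) the high end.

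Whole seedlings hold roots and shoots, and genes of both organs were read on the same arrays. Of 34 root genes other than peroxidases 4 had a probe set, all above the floor. BGLU21 (AT1G66270), a root beta-glucosidase, gave a signal of 265.4 in ppi1 and 845.1 in line 75-IV, against 482.9 in wild type, the same order as the 6 peroxidases known mainly from roots. The jacalin-like lectin genes did not share it. AT1G52070 had 47.2 in ppi1 and 71.3 in line 75-IV, against 28.9 in wild type. AT1G52050 had log2 ratios to wild type of 0.07 in ppi1 and 0.54 in line 75-IV, and JAL31 (AT3G16430) of 0.68 and 0.20. The summed signal of the 4 root genes was 430.2 in ppi1 and 1016.3 in line 75-IV, against 592.9 in wild type, and most of it came from BGLU21. Without that gene the sum was 164.8 in ppi1 and 171.2 in line 75-IV, against 110.0 in wild type. With it, 3 of the 4 root genes were higher in ppi1 than in wild type, with a median log2 ratio of 0.37, where 58.1% of all genes were higher. After median centring, quantile normalization or loess it was 2 of 4. Endodermis and root hair markers of that list had no probe set named for them. All 8 shoot and chloroplast genes were lower in ppi1 than in wild type, by log2 ratios between -1.21 and -0.12. Of all genes 41.5% were lower there. The count was 7 of 8 after loess and 6 of 8 after quantile normalization. Under the spike-in scaling, where the median of all genes was 0.57, it was 3 of 8. In line 75-IV 5 of 8 were lower, where all genes had 44.3%, and between 3 and 7 of 8 under those scalings. Their summed signal was 17935 in ppi1 and 21795 in line 75-IV, against 23248 in wild type. PSAN, a photosystem I subunit, had log2 ratios of -1.21 in ppi1 and -0.23 in line 75-IV against wild type, and LHCB4.3, a light-harvesting protein, -1.08 and 0.49. PRK and SBPASE, enzymes of the Calvin cycle, had -0.74 and -0.42 in ppi1 against wild type, and -0.18 and 0.11 in line 75-IV against wild type. PSAE-1 had -0.20 in ppi1 and 0.04 in line 75-IV. LHCB4.3, SBPASE and PSAE-1 thus also had line 75-IV highest and ppi1 lowest, so that order was not limited to root genes. The 5 shoot genes lower in line 75-IV had wild type highest. The part of the share of root tissue in the peroxidase values was not tested.

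Other genes of peroxide and wall chemistry were thinly covered. No probe set was named for any of the 24 monolignol and lignin genes, 17 laccases or 20 extensins and related wall proteins looked up. Dirigent proteins guide the coupling of phenol radicals in the wall, and 2 of their genes were measured. The signal of AT2G39430 was 16.0 in ppi1, near the floor, and 83.2 in line 75-IV, against 44.9 in wild type. The signal of AT4G11190 was 35.0 in ppi1 and 91.9 in line 75-IV, against 68.6 in wild type. Both followed the order of the root peroxidases, and another, AT2G21100, was below the floor. Of 5 genes on the side of peroxide supply, the NADPH oxidase genes AT1G19230 and AT4G11230 were below the floor, and AT4G25090 was above it, at 19.9, in line 75-IV alone. The amine oxidase gene AT2G42490, whose enzyme class releases hydrogen peroxide, had 207.4 in ppi1 and 172.2 in line 75-IV, against 119.4 in wild type. CCS, the copper chaperone of superoxide dismutase, had log2 ratios to wild type of -0.52 in ppi1 and -1.09 in line 75-IV. Intracellular peroxide removal was read by SAPX and TAPX, chloroplast ascorbate peroxidases of another enzyme class, with log2 ratios to wild type of -1.05 and -0.62 in ppi1 and of 0.52 and -0.16 in line 75-IV. SAPX thus had the same order of arrays as the 2 dirigent genes, and TAPX did not.

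**Figure D4:**
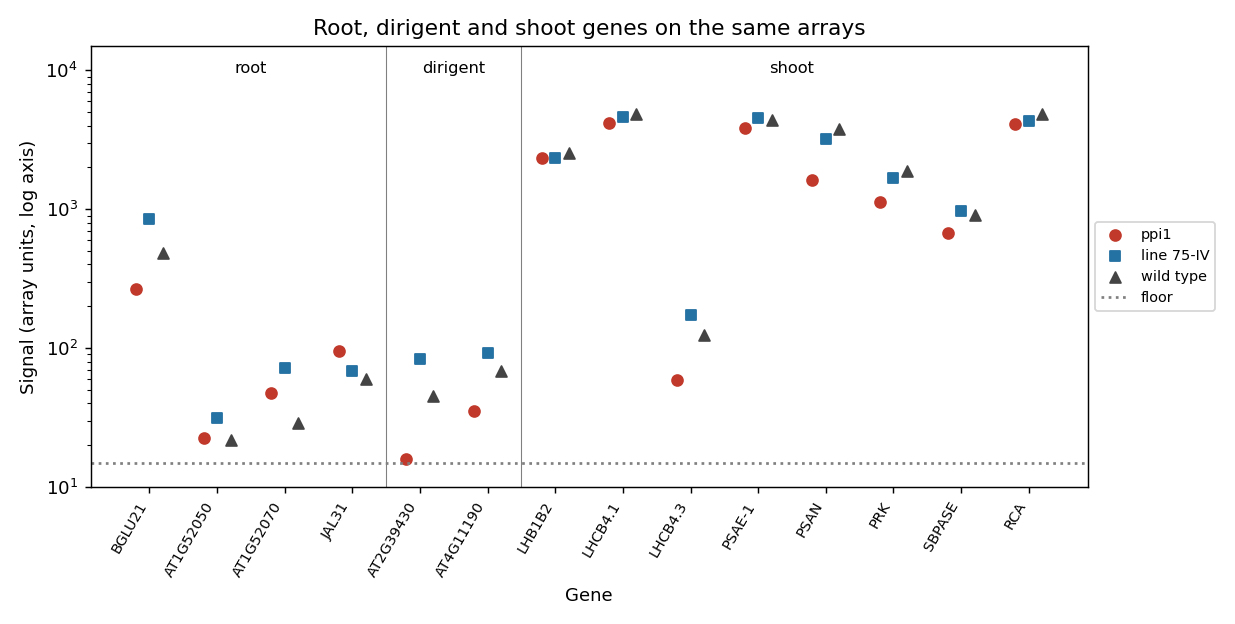
Signals on a log axis of the root, dirigent, and shoot and chloroplast genes above the floor in ppi1 and wild type, with 1 point per array and the floor of 14.9 dotted. BGLU21, both dirigent genes and the shoot genes LHCB4.3, PSAE-1 and SBPASE are highest in line 75-IV and lowest in ppi1. All 8 shoot genes are lower in ppi1 than in wild type with the arrays as deposited. Under the spike-in scaling, where the median of all genes is 0.57, 3 of 8 are lower.

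Pathogen and wounding genes were set beside PRX62 and PRX71. Of 30 genes looked up 6 were measured in ppi1 and wild type, 2 of them higher and 4 lower in ppi1 (3 and 3 under the spike-in scaling). Among all genes in that comparison 58.1% were higher and 41.5% lower with the arrays as deposited. The spike-in scaling moved their median to 0.57. The chitinase family gene AT2G43620 had log2 ratios to wild type of 1.98 in ppi1 and -0.56 in line 75-IV, so it lay on the same sides as PRX62. SGT1A, which assists the folding of disease resistance proteins, had 2.42 and 0.10, with signals near the floor in line 75-IV (19.7) and wild type (18.4). Related chitinase genes lay the other way, with AT2G43610 at -0.64 in ppi1 and 0.58 in line 75-IV, and CHI (AT2G43570) at -0.69 and 0.13. AT2G43590 had -0.52 in ppi1 and 0.91 in line 75-IV, and STZ had -0.09 and 0.27. With the arrays as deposited, all 4 genes lower in ppi1 thus had line 75-IV highest and ppi1 lowest. Of all genes measured on the 3 arrays 18.1% had that order. THI2.1 was above the floor in line 75-IV alone, at 43.6. With wild type set to the floor, it was at least 2.93-fold higher in line 75-IV.

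The genes whose pair of log2 ratios to wild type was nearest were found for 3 of the peroxidases among the 1796 genes measured on all arrays, as a description of 3 arrays. Nearest to PRX71 (AT5G64120) were AT4G32020 at a distance of 0.34, AT4G33110 (0.43), NIG (0.59), AT4G29020 (0.92) and AT2G01220 (1.04). Nearest to PRX62 (AT5G39580) were MCCA, a subunit of an enzyme of leucine breakdown, at 0.40, AT2G30600 (0.49), AT1G05340 (0.84), AT1G61100 (0.88) and AT2G05540 (0.88). Nearest to PRX23 (AT2G38390) were the expansin gene EXPA8 at 0.08, AT2G22510 (0.14), AT1G03746 (0.27), and the cold-response genes KIN2 (0.42) and LTI30 (0.44). No other peroxidase was among these 15 genes.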

How the data were processed

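Total RNA of whole seedlings was read on 3 Affymetrix arrays, 1 per line. Per the labels' protocols, RNA was reverse transcribed from an oligo-dT primer and transcribed into biotin-labelled cRNA, so probe sets far from the 3' end depend on RNA integrity. The deposited values are linear signal intensities per probe set (8297, of which 50 controls were left out). The sources used here name neither the software nor its scaling target. Means trimmed by 2% agreed within 2%, so the intensities were used as deposited, on the log2 scale. Values below the 40th percentile (14.9) were raised to that floor. A gene above it on 1 array of a pair has only a bound.

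Of the probe sets, 3794 named 1 gene, 70 several and 4433 none. RefSeq's gene table (TAIR10.1) held 3592 of the 3602 genes and was used for names and gene order only. Where a gene had several probe sets (164 genes) the brightest was used. The peroxidase genes and the comparison lists were chosen with earlier results of these data known. Named are the 10 genes, all other peroxidases with a probe set, up to 4 genes per list by size of the ppi1 to wild-type ratio, and the 5 nearest genes to 3 peroxidases by distance between pairs of log2 ratios. AT2G21100, AT1G19230, AT4G11230, AT4G25090, PSAE-1, AT2G43590, STZ and THI2.1 were named after their values were seen. With 1 array per line no p-value was computed, and 2-fold is a rule of size. Alternatives were median centring, quantile normalization, loess (span 0.4), spike-in scaling, a floor at the 20th percentile, at the 60th or left out, all probe sets of a gene by their median, suffix-free probe sets, and thresholds of 1.5-fold and 3-fold. The calculation was tested on arrays simulated from the wild-type array with random noise and planted differences. That test does not show whether the differences between the real arrays would repeat. Python 3.11.15, pandas 2.3.3, numpy 2.4.6, scipy 1.17.1 and statsmodels 0.14.6 were used.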

Additional observations from a re-analysis of the deposited data

Results flagged for a closer look

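For 8 of the 10 peroxidase genes the arrays of ppi1 and line 75-IV lay on opposite sides of the wild-type array. So did 8 of the 16 other peroxidase genes and 38.3% of all 1796 genes measured on the 3 arrays. The ratios helped to choose the 10 genes, and with 1 array per line the difference was not tested. PRX62 had log2 ratios to wild type of 1.05 in ppi1 and -1.499 in line 75-IV. The other 7 genes were lower in ppi1 and higher in line 75-IV. The values were -1.82 in ppi1 and 0.48 in line 75-IV for PRX23, -1.42 and 0.19 for PRX30, and -0.96 and 0.76 for PRX45. They were -0.31 and 0.40 for PRX07, -0.46 and 1.18 for PRX27, -0.23 and 0.29 for PRX57, and -0.63 and 0.61 for PRX16. The median disagreement between probe sets was 0.48 in ppi1 and 0.30 in line 75-IV against wild type. Within it lay the ppi1 ratios of PRX07, PRX27 and PRX57 and the line 75-IV ratios of PRX30 and PRX57. The side of wild type is least certain for these. Under the spike-in scaling PRX07, PRX27 and PRX57 were above 0 in ppi1, at 0.18, 0.03 and 0.25, so that 5 of the 8 kept opposite sides there. That scaling moved the median of all genes to 0.57 in ppi1 and -0.12 in line 75-IV against wild type. The share of all genes on opposite sides under it is not given here.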

How the results depend on the processing

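Of the scalings, the spike-in controls moved the medians of the ppi1 comparisons most. In ppi1 against wild type this scaling left 1 gene lower by 2-fold, where all genes had 0.63%. The median log2 ratio was 0.10, against 0.57 for all genes. In ppi1 against line 75-IV it gave 2 genes higher and 2 lower, where all genes had 26.8% and 0.904%. The median there was -0.31, against 0.71 for all genes. Median centring left 1 gene higher in ppi1 against wild type, where all genes had 3.51%, since PRX62 then stood at 0.97. Probe sets without a suffix cover 4 of the 10 genes, and PRX71 is not among them. They gave 1 higher and 1 lower in ppi1 against wild type, 0 higher in line 75-IV against wild type, and 2 lower with a median of -1.10 in ppi1 against line 75-IV. All genes on such probe sets had 4.41%, 1.74%, 1.43% and 2.93% in that order. In that last comparison the median of all 10 genes was -1.03 after loess. With the floor at the 60th percentile 8 genes were measured and 1 was higher in line 75-IV against wild type, where all genes had 0.768%. At 1.5-fold, 4 genes were lower in ppi1 against wild type, 5 were higher in line 75-IV against wild type and 2 were higher in ppi1 against line 75-IV. All genes had 8.74%, 7.8% and 14.3% in that order. At 3-fold, 1 was higher and 1 lower in ppi1 against wild type, and 1 higher and 0 lower in line 75-IV against wild type. The shares of all genes were 0.863%, 0.486%, 0.269% and 0%. Of the ratios of single genes, 0 of 82 changed sign in line 75-IV against wild type, 6 of 82 in ppi1 against wild type and 2 of 82 in ppi1 against line 75-IV. These totals include the floor and suffix-free settings, and probe set medians of genes with 1 probe set. Such values equal the main ones by construction. Only the scalings, and the probe set medians of PRX11 and PRX30, could change a sign. Apart from PRX11 (AT1G68850), whose ratio to wild type in ppi1 ran from -0.04 to 0.65, the sign changes came from the spike-in scaling. The ratio of PRX71 (AT5G64120) in ppi1 against wild type ran from 2.67 to 3.23. No paired analysis was possible because each line had 1 array. Precision is limited by that number, and signals near the floor, as for PRX39 and PRX27 in ppi1, are the least certain.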
